A study of Mus musculus with 6 samples.

Results

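Glutamine and glutamate handling in the liver was followed through 9 genes chosen by symbol: Glul, Slc1a2, Slc1a4, Rhbg, Oat, Gls2, Glud1, Slc38a3 and Slc38a4. The Ensembl identifiers of 8 of the 9 were found among the 37991 genes of the count tables, and all 8 passed the filter on low counts that left 17558 genes to test. No identifier in the tables matched Rhbg, an ammonium transporter of the Rhesus family, and it was not analysed here. RNA was sequenced from liver and liver tumour of mice that were 35 weeks old at death and had spent 27 weeks on a high-fat diet. Control livers carried TgAlbCre alone, a transgene that expresses Cre recombinase from the albumin promoter, which is active in hepatocytes. KAP1-deleted livers were of TgAlbCreKap1lox genotype, where the same Cre removes KAP1 (gene Trim28), a co-repressor recruited by zinc finger proteins, and the tumours are primary tumours of this genotype. Each of the 3 groups held 2 libraries. By the mouse codes in the labels the tumour and the KAP1-deleted liver of a replicate number came from 1 mouse, so the 6 libraries represent 4 mice. All 6 share the diet and the Cre transgene, and both tumours carry the KAP1 deletion. The extraction text of the labels speaks of cell lines although the samples are labelled as tissue.

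Liver handles nitrogen by zone. Hepatocytes near the portal vein release ammonia from glutamine with the glutaminase Gls2 and pass it into the urea cycle, while the few hepatocyte layers around the central vein capture what is left and join it to glutamate with glutamine synthetase, the product of Glul. Those pericentral cells are also known for the glutamate transporter Slc1a2, the ammonium transporter Rhbg and ornithine aminotransferase (Oat), and Wnt and beta-catenin signalling is known to maintain their programme.

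Genes held 39723997 to 62178752 counts per library. Trim28 read 32.5 and 35.9 CPM in control liver and between 4.59 and 6.02 CPM in the 4 KAP1-deleted libraries, tumours included. Levels are CPM, counts scaled to library size with TMM factors, and paired values are always replicates 1 and 2 in that order. Hepatocyte markers summed to 91260.3 to 103605 CPM in the 4 livers and to 49109 and 64466 CPM in the tumours, with 5 of 6 listed markers matched and none of these at 0. Most of that difference lay in Alb, with group means of 67947, 59164 and 26524 CPM in control liver, KAP1-deleted liver and tumour, whereas Apob had 24639.5, 29409.8 and 26700.3 CPM. None of the 5 was called in any comparison by edgeR, with 0, 2 and 3 at an unadjusted p under 0.05 between the livers, against KAP1-deleted liver and against control liver. Kupffer cell and macrophage markers (5 genes) summed to 231 to 257 CPM in the livers and 89.2 and 110.0 CPM in the tumours. Of these, edgeR called Clec4f, Marco and Vsig4 lower in both tumour comparisons. Adgre1 and Cd68 were not called, and Adgre1 had group means of 40.1, 42.2 and 36.1 CPM in the same group order. Stellate cell and fibroblast markers (5 genes) summed to 300 to 394 against 108 and 258 CPM. Only Des among them was called, lower in both tumour comparisons, while Col1a1 had group means of 5.26, 5.57 and 12.2 CPM. Endothelial markers (5 genes) summed to 203 to 224 against 177 and 148 CPM, and cholangiocyte markers (4 genes) to 2.68 to 5.02 against 0.525 and 2.34 CPM. No marker of the last 2 lists was called. The 5 lymphocyte markers reached 5.83 CPM in KAP1-deleted liver 2 and 0.917 to 2.80 CPM elsewhere. Exocrine pancreas markers (5 genes) summed to 17.1 CPM in KAP1-deleted liver 2 and to 0.182 to 0.594 CPM in the other libraries, where 2, 3 and 4 of them were at 0 in control liver 1, KAP1-deleted liver 1 and tumour 1. No marker was at 0 in every library. The part of these cell types in the values below was not tested, and in bulk RNA a change in the number of cells of a type and a change in RNA per cell cannot be told apart.

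In the tumours the genes of glutamine synthesis (Glul) and glutamate uptake (Slc1a2) rose, as did the neutral amino acid carrier gene Slc1a4. The glutaminase gene Gls2, the glutamine transporter gene Slc38a3 and another neutral amino acid carrier gene, Slc38a4, fell. No difference was detected for Glud1 and Oat. Of the 8 genes, 3 rose and 3 fell against KAP1-deleted liver, and the counts were 3 and 3 against control liver as well. The edgeR quasi-likelihood test called 11.4% of all tested genes against KAP1-deleted liver (4.8% higher and 6.64% lower) and 13.9% against control liver (6.15% higher and 7.76% lower). For 6 of the 8, the same genes, the tumours did not overlap the livers of either group, and such a separation held for 63.5% of all tested genes against KAP1-deleted liver and 56.4% against control liver. Both tumour comparisons use the same 2 tumours, so they do not count as independent of each other. The median log2 fold change of the 8 was -0.02 against KAP1-deleted liver and 0.03 against control liver, beside -0.03 and -0.02 over all genes tested. The 3 rises were called in every alternative of scaling, filter, test and left-out library that was run, whereas the 3 falls were not, as given with each gene.

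**Figure D1:**
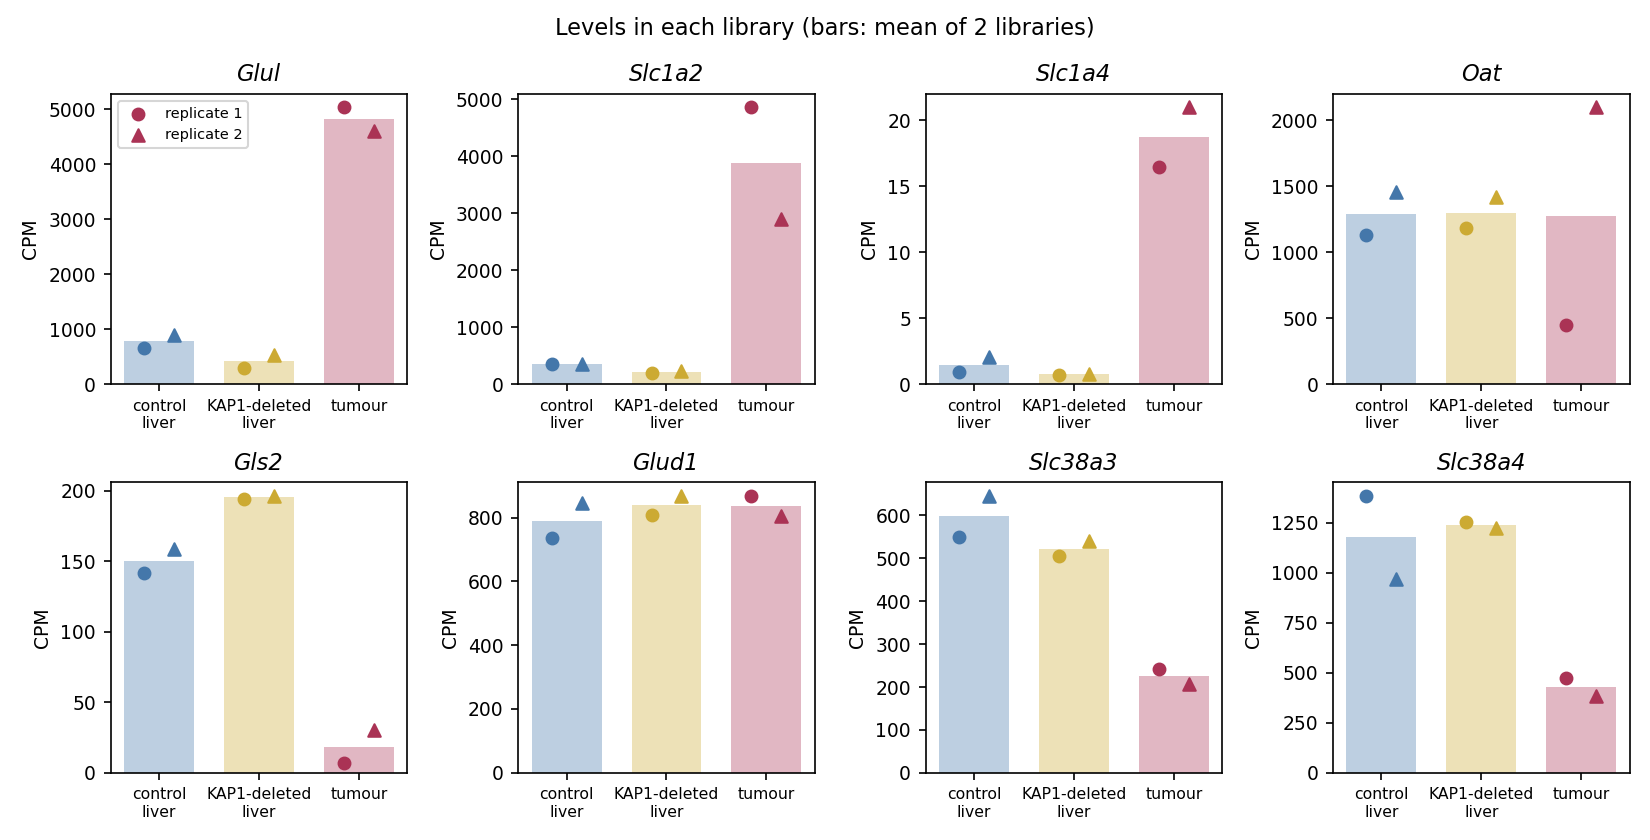
CPM of the 8 genes in each library, 1 panel per gene on a linear axis from 0. Circles are replicate 1, triangles replicate 2 and bars the mean of both; both tumours stand above all 4 livers for Glul, Slc1a2 and Slc1a4 and below them for Gls2, Slc38a3 and Slc38a4, while the Oat values of the tumours lie at 452 and 2099 CPM on either side of the livers.

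Glul encodes glutamine synthetase, the enzyme that makes glutamine from glutamate and ammonia. Its level was 664 and 899.9 CPM in the control livers, 303 and 535 CPM in the KAP1-deleted livers, and 5037 and 4599.9 CPM in the tumours. Each tumour was far above the liver of its own mouse, and no groups overlapped. The mean rose 11.5-fold against KAP1-deleted liver (log2 fold change 3.52 ± 0.37 SE, edgeR adjusted p = 0.00238) and 6.16-fold against control liver (2.62 ± 0.36, edgeR adjusted p = 0.00425). The 2 tumours differed by 1.10-fold, less than the 1.77-fold between the KAP1-deleted livers. Of the 31-base words of Glul 79.6% occur in no other gene of the reference transcripts, and its processed copy Glns-ps1 held 0.731% to 1.08% as many counts as Glul in every library. Reads of the pair could therefore not be fully kept apart.

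Slc1a2 encodes the high-affinity glutamate transporter known as GLT-1 or EAAT2, which brings glutamate into the cell. It stood at 356 and 359 CPM in the control livers, 197 and 233 CPM in the KAP1-deleted livers, and 4861 and 2895 CPM in the tumours. The lowest tumour lay above the highest liver. The rise was 18.1-fold against KAP1-deleted liver (log2 fold change 4.18 ± 0.35, edgeR adjusted p = 0.00119) and 10.8-fold against control liver (3.44 ± 0.33, edgeR adjusted p = 0.00125). An annotated antisense gene, Gm13872, held 0.601% to 1.66% as many counts as Slc1a2. No source used here says how the counting treated strand, so antisense reads could not be told apart from reads of the gene.

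Slc1a4 encodes ASCT1, a sodium-dependent carrier of alanine, serine and cysteine from the same protein family as Slc1a2. It was scarce in liver, at 0.895 and 2.05 CPM in the control and 0.704 and 0.784 CPM in the KAP1-deleted libraries, which is 31 to 121 counts. In the tumours it reached 16.4 and 21.0 CPM, or 1191 and 1101 counts. It rose 25.04-fold against KAP1-deleted liver (log2 fold change 4.65 ± 0.40, edgeR adjusted p = 0.0012) and 12.35-fold against control liver (3.63 ± 0.37, edgeR adjusted p = 0.00139). Against control liver the log2 fold change was 3.17 without control liver 1 and 4.38 without control liver 2. Its order with Slc1a2 was not stable, since Slc1a2 had the larger rise without tumour 2 in both comparisons and without control liver 1 in the second. All of the 31-base words of Slc1a4 are unique to it.

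The 3 genes that rose differ in the stretch before their start sites. The 250 bases upstream of the RefSeq start of each (GRCm38.p6) are shown because these members rose together. Capitals mark CTTTGA on either strand (TCAAAG on the other), the core letters to which TCF/LEF factors, the DNA-binding partners of beta-catenin, are known to bind.
Glul, chr1:153899679-153899928, plus strand: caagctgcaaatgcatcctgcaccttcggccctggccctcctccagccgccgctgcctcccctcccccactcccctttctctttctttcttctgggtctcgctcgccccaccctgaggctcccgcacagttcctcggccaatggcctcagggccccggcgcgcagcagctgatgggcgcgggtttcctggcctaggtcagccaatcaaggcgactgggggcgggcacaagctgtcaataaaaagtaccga
Slc1a2, chr2:102706188-102706437, plus strand: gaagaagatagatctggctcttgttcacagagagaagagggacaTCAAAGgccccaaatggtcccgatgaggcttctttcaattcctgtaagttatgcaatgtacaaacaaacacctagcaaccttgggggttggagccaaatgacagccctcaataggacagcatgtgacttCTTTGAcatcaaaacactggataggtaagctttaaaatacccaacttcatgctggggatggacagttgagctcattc
Slc1a4, chr11:20332714-20332963, minus strand: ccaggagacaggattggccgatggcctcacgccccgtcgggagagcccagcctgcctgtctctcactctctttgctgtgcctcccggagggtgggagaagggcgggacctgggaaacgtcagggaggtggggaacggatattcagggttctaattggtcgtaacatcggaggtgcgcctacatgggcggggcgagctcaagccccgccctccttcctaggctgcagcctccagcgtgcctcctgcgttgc
Slc1a2 held CTTTGA at 2 places, from -206 to -201 and from -77 to -72 counted from the start site, on opposite strands. Glul and Slc1a4 held none in this window, nor did the windows of Oat, Glud1 and the 3 starts of Slc38a4. No window was available for Gls2 and Slc38a3, so neither gene was searched. Among 32851 such windows of all genes 13.8% held it. The composition differed too, with 64.8% G and C and 15 CG pairs for Glul, 64.8% and 16 for Slc1a4, and 44.8% and 1 for Slc1a2, beside medians of 52.4% and 6. The GC box GGGCGG, searched on both strands, occurred at 1 place for Glul, 3 for Slc1a4 and 0 for Slc1a2, and 32.7% of all windows held it. CAAAGTCCA, the letters of an HNF4 site, was in none of the windows searched for these genes and in 0.384% of all. Among the windows searched, TATAAA was only in that of the second start of Slc38a4, and 12.4% of all held it. A match of letters is a description of the window and not a binding site.

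Gls2 encodes the liver-type glutaminase, which splits glutamine into glutamate and ammonia in periportal mitochondria. It stood at 142 and 159 CPM in the control livers, 194 and 197 CPM in the KAP1-deleted livers, and 7.06 and 30.2 CPM in the tumours. Both tumours were below every liver, although they differed by 4.28-fold from each other. It fell 10.5-fold against KAP1-deleted liver (log2 fold change -3.39 ± 0.68, edgeR adjusted p = 0.0340) and 8.10-fold against control liver (-3.02 ± 0.66, edgeR adjusted p = 0.0395). The log2 fold change was -2.70 and -4.80 without tumours 1 and 2 in the first comparison and -2.32 and -4.42 in the second. The call was the least stable of the 6, while the log2 fold change stayed between -3.73 and -2.94 wherever the call was lost. Against KAP1-deleted liver the adjusted p was 0.147 and 0.150 without control livers 1 and 2, 0.227 and 0.282 without KAP1-deleted livers 1 and 2, 0.136 with only the 4 libraries compared and 0.150 with the mouse as a block, while it was 0.00727 and 0.00195 without tumours 1 and 2. Against control liver it was 0.185 and 0.270 without control livers 1 and 2, 0.181 and 0.182 without KAP1-deleted livers 1 and 2, and 0.158 with only the 4 libraries compared. Spryd4, whose exons overlap those of Gls2 on the opposite strand, held 9.24% to 12.9% as many counts as Gls2 in the livers and 160% and 33.6% in the tumours (817 and 532 Spryd4 counts in tumours 1 and 2), and the part of shared reads in the fall was not tested.

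Slc38a3 encodes SNAT3, the system N transporter that moves glutamine in either direction across the hepatocyte membrane. Its values were 549.6 and 646 CPM in control liver, 505 and 540.2 CPM in KAP1-deleted liver and 243 and 207 CPM in tumour. The tumours lay below all livers, and the gene fell 2.33-fold against KAP1-deleted liver (log2 fold change -1.22 ± 0.22, edgeR adjusted p = 0.0133) and 2.66-fold against control liver (-1.41 ± 0.22, edgeR adjusted p = 0.00642). Against KAP1-deleted liver the adjusted p was 0.0526 and 0.0819 without KAP1-deleted livers 1 and 2, 0.0554 and 0.0697 without tumours 1 and 2, and 0.0659 when libraries were scaled to their totals alone. The fall against control liver kept its call throughout.

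Slc38a4 encodes SNAT4, a system A carrier of neutral amino acids that is abundant in liver and, in the mouse, expressed from the paternal allele. It stood at 1385 and 969 CPM in the control livers, 1255 and 1225 CPM in KAP1-deleted liver and 474 and 384 CPM in tumour. Both tumours were below all livers. The fall was 2.89-fold against KAP1-deleted liver (log2 fold change -1.53 ± 0.27, edgeR adjusted p = 0.0131) and 2.74-fold against control liver (-1.46 ± 0.27, edgeR adjusted p = 0.0130). The adjusted p was 0.0502 without KAP1-deleted liver 2 and 0.0544 and 0.0683 without tumours 1 and 2 in the first comparison, and 0.0501 and 0.0730 without tumours 1 and 2 in the second. No difference between KAP1-deleted and control liver was detected for this imprinted gene (log2 fold change 0.07 ± 0.26, edgeR adjusted p = 1; -0.18 and 0.35 without control livers 2 and 1).

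Glud1 encodes mitochondrial glutamate dehydrogenase, which interconverts glutamate and 2-oxoglutarate with release or capture of ammonia. It was the most even of the 8 genes, at 735 and 845 CPM in the control livers, 809 and 868 CPM in KAP1-deleted liver and 867 and 805 CPM in tumour. All groups overlapped. Its log2 fold change was -0.01 ± 0.22 against KAP1-deleted liver and 0.08 ± 0.22 against control liver (edgeR adjusted p 0.990 and 0.845). With libraries scaled to their totals alone the first became 0.53 and the second 0.55, while the median of all genes moved by 0.54 and 0.47. Of its 31-base words 89.6% are unique.

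Oat encodes ornithine aminotransferase, which converts ornithine to a precursor of glutamate and proline and is known as a pericentral gene alongside Glul. It stood at 1129 and 1456 CPM in the control livers, 1185 and 1417 CPM in KAP1-deleted liver and 452 and 2099 CPM in tumour. Tumour 1 was the lowest and tumour 2 the highest of the 6 libraries, a 4.64-fold difference. The log2 fold change was -0.03 ± 0.63 against KAP1-deleted liver and -0.02 ± 0.63 against control liver (edgeR adjusted p 0.981 and 0.988). Without tumour 1 they were 0.69 and 0.70 (edgeR adjusted p 0.270 and 0.242), and without tumour 2 they were -1.54 and -1.52 (edgeR adjusted p 0.0515 and 0.0477).

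**Figure D2:**
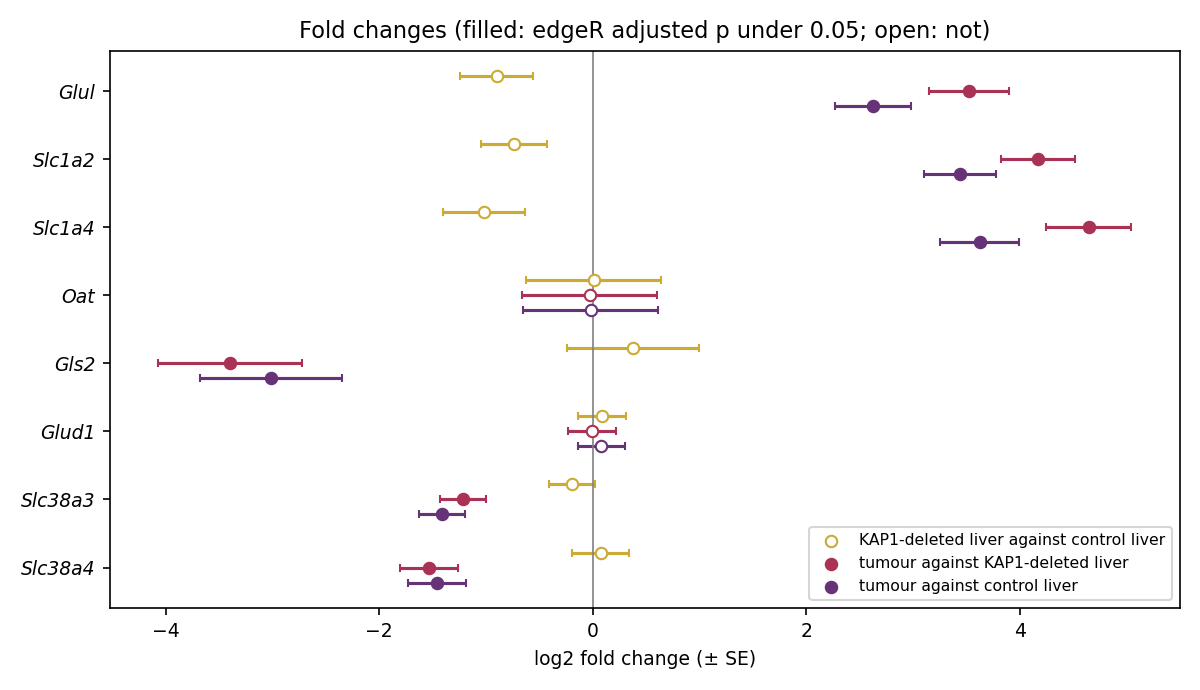
Fold changes of the 8 genes on a log2 axis with SE bars, 1 colour per comparison; filled points have an edgeR adjusted p under 0.05. Glul, Slc1a2 and Slc1a4 lie right of 0 in both tumour comparisons and left of 0, unfilled, between KAP1-deleted and control liver, while Oat and Glud1 lie at 0 in all 3.

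The 2 tumours were alike in Glul, Slc1a4, Glud1, Slc38a3 and Slc38a4, where they differed by 1.08-fold to 1.27-fold, and Slc1a2 was 1.68-fold higher in tumour 1. Oat and Gls2 set them apart, each over 4-fold higher in tumour 2. Ratios as large as that of Oat were found for 66 of the 17558 tested genes (0.376%) and as large as that of Gls2 for 96 (0.547%), with 0.5 CPM added to each value. The relatives of the pathway showed no common lean. Tumour 2 was higher in 3 of 6 urea cycle genes, 2 of 8 glutamate transaminases and 3 of 8 genes of proline and ornithine metabolism, with median ratios of tumour 2 to tumour 1 of 1.08, 0.872 and 0.967, and a median of 0.998 over all genes.

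Per length, the order of the 8 genes changed from liver to tumour. Levels per kilobase of exon (CPM divided by the summed length of all annotated exons) allow genes to be compared, with the limit that an isoform shorter than the annotation, such as one with a short end for the 13133-base Slc1a2, would be understated. In control liver the order was Oat (548 CPM per kilobase), Slc38a4 (276), Glul (235), Glud1 (188), Slc38a3 (113), Gls2 (43.3), Slc1a2 (27.2) and Slc1a4 (0.376). The neighbours Slc38a4 and Glul, and Glul and Glud1, overlapped between libraries there. In KAP1-deleted liver Glul came after Glud1 and overlapped with Slc38a3, and the rest kept their places. In tumour Glul came first (1450.1), then Oat (541), Slc1a2 (295), Glud1 (199), Slc38a4 (101), Slc38a3 (42.6), Gls2 (5.36) and Slc1a4 (4.76), with Gls2 and Slc1a4 overlapping. Oat overlapped both Slc1a2 and Glud1, since its level was 192 in tumour 1, below both, and 889.6 in tumour 2.

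**Figure D3:**
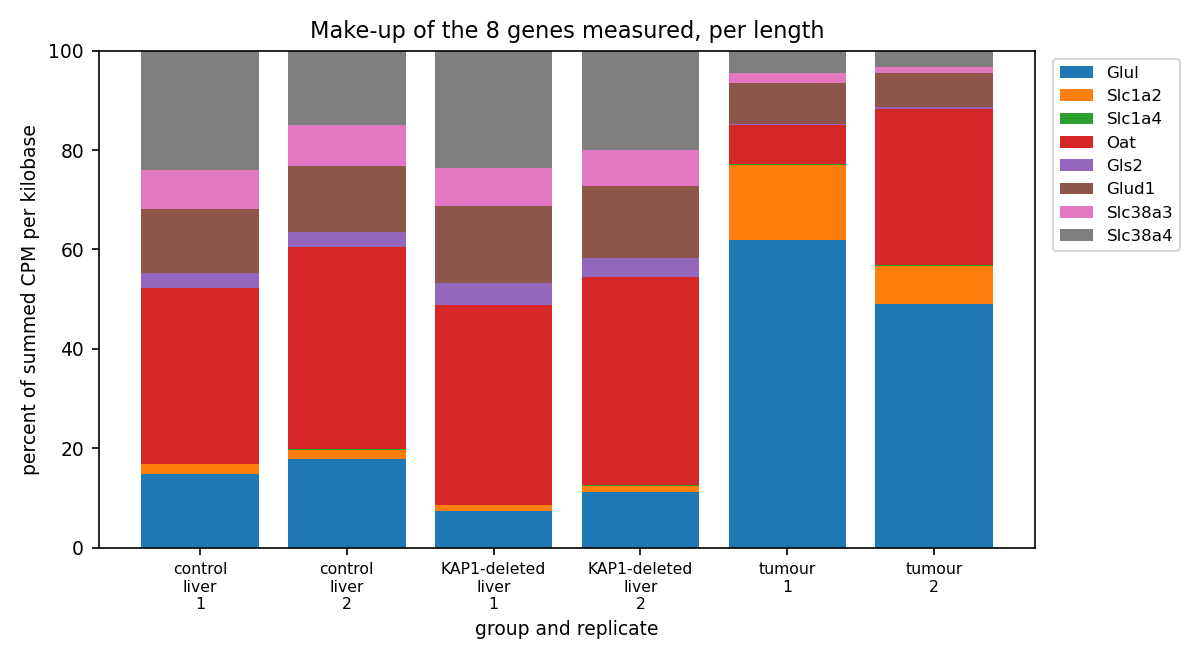
Each gene's percent of the summed CPM per kilobase of the 8 genes, 1 stacked bar per library. Glul takes 7.31% to 17.9% in the 4 livers and 61.9% and 48.9% in the tumours, and Oat takes 7.83% in tumour 1 against 31.4% in tumour 2.

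Glul made up 14.8% and 17.9% of the summed level of the 8 genes in the control livers, 7.31% and 11.2% in the KAP1-deleted livers and 61.9% and 48.9% in the tumours. The ratio of Glul to Gls2, the enzymes that make and split glutamine, both per kilobase, was 4.89 and 5.92 in the control livers, 1.63 and 2.85 in the KAP1-deleted livers, and 746 and 159 in the tumours. A ratio taken within a library does not depend on how libraries are scaled. The ratio of Glul to Glud1 was 1.14 and 1.35, then 0.474 and 0.781, then 7.36 and 7.24, so the tumours were alike in it. The ratio of Slc1a2 to Slc38a3 was 0.157 to 0.261 in the 4 livers and 8.05 and 5.63 in the tumours. For each of these 3 ratios the tumours lay above all livers and the KAP1-deleted livers below the control livers. The groups of Glul and Slc1a2, which these ratios start from, did not overlap on their own, so the ratios are not separate evidence. Between the livers 31.3% of single tested genes did not overlap, and the share of other gene ratios that separate likewise was not computed.

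In the KAP1-deleted livers none of the 8 genes passed the test against control liver (edgeR, 0 called; DESeq2, 0), where 0.336% of all genes did (0.239% higher and 0.0968% lower). An unadjusted p under 0.05 was found for 3 of the 8, Glul, Slc1a2 and Slc1a4, and for 5.44% of all genes. In these 3 the KAP1-deleted livers were lower and did not overlap the controls, and Gls2 and Slc38a3 did not overlap either, which makes 5 of 8 beside 31.3% of all tested genes in either direction. The log2 fold changes were -0.90 ± 0.34 for Glul, -0.74 ± 0.31 for Slc1a2 and -1.02 ± 0.39 for Slc1a4 (edgeR adjusted p 0.769, 0.890 and 0.780). They stayed below 0 in all 12 alternatives, from -1.37 to -0.54 for Glul, -0.86 to -0.62 for Slc1a2 and -1.46 to -0.28 for Slc1a4. With no filter on low counts Slc1a4 had an edgeR adjusted p of 0.0374. These are the same KAP1-deleted libraries against which the tumours were compared, so a low value there enters both differences. Gls2 was higher in both KAP1-deleted livers than in both controls, with a log2 fold change of 0.38 ± 0.61, and Slc38a3 was lower in both, with -0.19 ± 0.21 (edgeR adjusted p 1 and 1). Oat stood at 0.01 ± 0.63 and Glud1 at 0.09 ± 0.22 (edgeR adjusted p 1 and 1).

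The profile of Glul over the 6 libraries was set beside those of 11432 other tested genes. These had a mean of at least 1 CPM and a symbol that is not a predicted, pseudogene, Rik-type or mitochondrial name. Likeness was measured by the Euclidean distance between log2 CPM centred on each gene's own mean. The closest was Arhgap6, a GTPase-activating protein, at 5.28 and 6.64, 2.91 and 2.84, and 40.3 and 39.1 CPM in control liver, KAP1-deleted liver and tumour (distance 0.612). Gulo, the last enzyme of vitamin C synthesis, followed (0.813), at 273 and 299, 63.1 and 140.4, and 1195 and 1084 CPM. Sema3b, a secreted semaphorin, Rdh9, a retinol dehydrogenase family gene, and Slc22a3, an organic cation transporter, had distances of 0.814, 0.835 and 0.902. Of the genes studied here Slc1a4 ranked 6 and Slc1a2 ranked 9, Glud1 4320 and Oat 9733, and Slc38a3, Slc38a4 and Gls2 ranked 10902, 11067 and 11407, near the far end. With 6 libraries in 3 groups such a distance mostly reflects the group means, and between 2 and 4 of the 5 closest genes stayed among the closest 5 when a library was left out.

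Other genes that move or use glutamine and glutamate were listed together with genes of proline and ornithine metabolism and of the urea cycle. Of the 71 symbols listed, which include Pycrl and its newer name Pycr3 for the same gene, 70 had an identifier in the tables and 57 were tested. Against KAP1-deleted liver 5 rose and 10 fell, beside 4.8% and 6.64% of all tested genes, with a median log2 fold change of -0.12. Urea cycle genes, described again below, made up 5 of these 10 falls. Against control liver 7 rose and 13 fell, beside 6.15% and 7.76%, with a median of -0.21. Of these 13 falls, 6 were urea cycle genes. The first split was 7 and 4 without tumour 1, and the second 9 and 5 without tumour 1, 7 and 6 without tumour 2 and 5 and 8 without control liver 2. With the mouse as a block the first was 7 and 16. With libraries scaled to their totals alone the splits were 13 and 8, and 11 and 8. Between KAP1-deleted and control liver 0 of the 57 passed edgeR's test, 2 had an unadjusted p under 0.05 (5.44% of all genes did), and DESeq2 called 1 higher and 1 lower.

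Among the carriers, Slc1a5, which encodes the glutamine carrier ASCT2, was the 1 of 2 tested SLC1 relatives that rose. It stood at 1.59 and 1.04 CPM in the control livers, 1.88 and 1.70 CPM in KAP1-deleted liver and 31.95 and 17.8 CPM in tumour, and rose 13.9-fold against KAP1-deleted liver (log2 fold change 3.80 ± 0.35, edgeR adjusted p = 0.00135) and 19.3-fold against control liver (4.27 ± 0.36, edgeR adjusted p = 7.4e-04). Slc7a5, the LAT1 exchanger of large neutral amino acids, stood at 1.07 to 1.38 CPM in the 4 livers and at 6.23 and 18.5 CPM in the tumours (log2 fold change 3.38 ± 0.52 against KAP1-deleted liver, edgeR adjusted p = 0.00968). Leaving out KAP1-deleted liver 1 or 2 gave 0.0727 and 0.100, and without tumour 2 the log2 fold change was 2.38. Of 7 SLC38 relatives none passed against KAP1-deleted liver (edgeR 0, with 2 at an unadjusted p under 0.05; DESeq2 0), although 4 rose with library totals alone and 1 rose and 1 fell with the mouse as a block. Of 4 mitochondrial glutamate and aspartate carriers none passed in either tumour comparison (edgeR 0, with 1 at an unadjusted p under 0.05 in each). Slc38a11, a sparsely counted relative, rose 7.83-fold against control liver, from 0.289 and 0.543 CPM to 3.52 and 3.24 CPM (edgeR adjusted p = 0.00335). In the KAP1-deleted livers it lay between, at 1.52 and 2.31 CPM (log2 fold change 2.15 ± 0.38 against control liver, edgeR adjusted p = 0.0997). Among the Rhesus family relatives of Rhbg, Rhcg had 0 counts in all 6 libraries and Rhag and Rhd at most 7, so none was tested.

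Among the enzymes, Psat1, the serine-pathway transaminase that takes its amino group from glutamate, stood at 0.231 to 0.568 CPM in the livers and 10.4 and 11.01 CPM in the tumours and rose 21.1-fold against KAP1-deleted liver (log2 fold change 4.4 ± 0.33, edgeR adjusted p = 9.1e-04). Pycr1, which completes proline synthesis in mitochondria, rose 18.4-fold from 0.0908 and 0.106 CPM to 1.24 and 2.49 CPM (log2 fold change 4.21 ± 0.58, edgeR adjusted p = 0.00559; log2 fold change 3.61 without tumour 2). Ctps2, a glutamine-using CTP synthase, rose 3.29-fold to 41.2 and 28.4 CPM (edgeR adjusted p = 0.00736) and was the 1 of 10 amidotransferases that passed. Abat, the GABA transaminase, fell 3.51-fold to 34.4 and 44.4 CPM (edgeR adjusted p = 0.00434). Tat, the tyrosine transaminase, fell 4.70-fold to 56.7 and 86.0 CPM (edgeR adjusted p = 0.0102, and 0.0731 without tumour 1).

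The urea cycle, which receives the ammonia that Gls2 releases, fell in 5 of 6 genes against KAP1-deleted liver and in 6 of 6 against control liver, beside 6.64% and 7.76% of all tested genes called lower, with median log2 fold changes of -2.17 and -2.09. Without tumour 1 the calls numbered 2 and 2, and without tumour 2 they numbered 4 and 3. Arg1, the arginase that releases urea, fell from 1546 and 1122 CPM in KAP1-deleted liver to 68.2 and 194 CPM (log2 fold change -3.35 ± 0.51, edgeR adjusted p = 0.00889; log2 fold change -4.30 without tumour 2). Cps1, which fixes ammonia at the entry of the cycle, fell from 7879 and 5870.5 CPM to 705 and 1211 CPM (log2 fold change -2.84 ± 0.45, edgeR adjusted p = 0.00901, and 0.0591 without tumour 1).

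**Figure D4:**
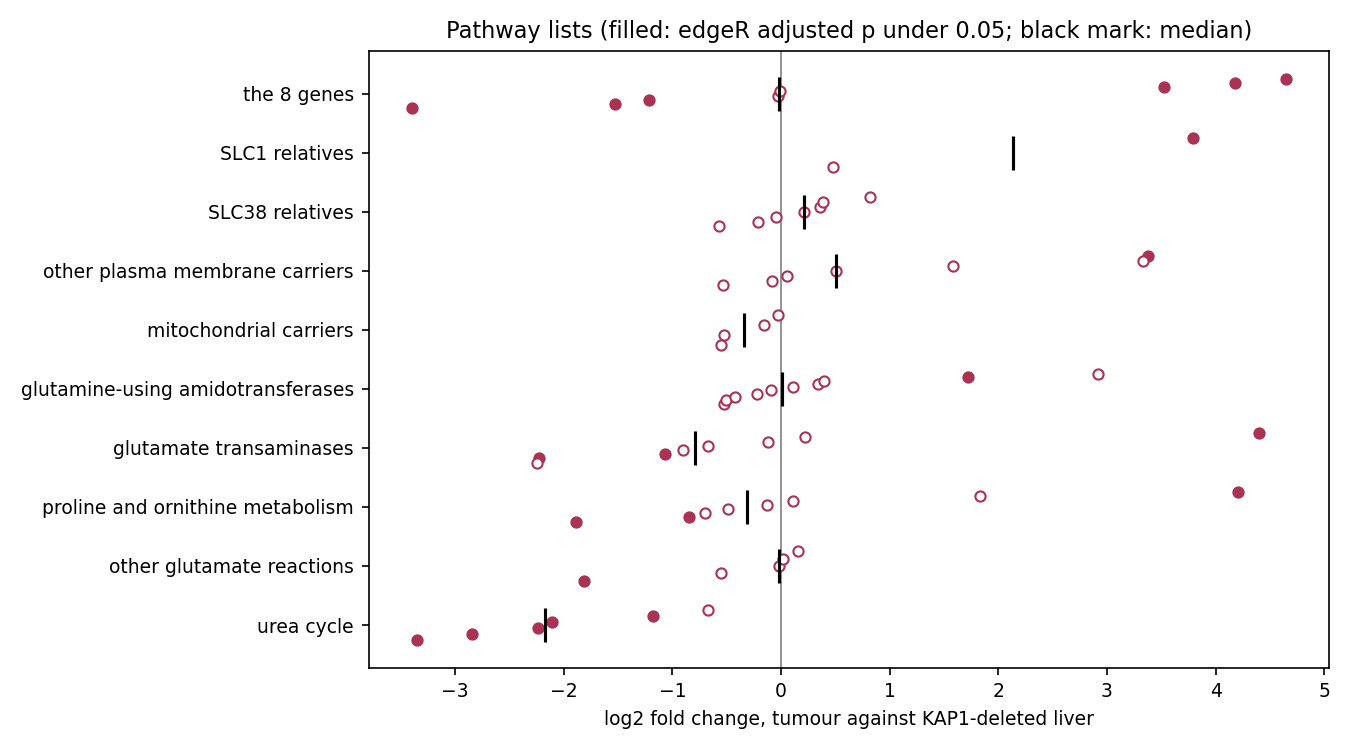
Log2 fold changes of tumour against KAP1-deleted liver for the tested genes of each list, 1 point per gene, filled where the edgeR adjusted p is under 0.05; black marks are medians. The 8 genes spread from -3.39 to 4.65 around a median of -0.02, while all 6 urea cycle genes lie left of 0.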

How the data were processed

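RNA of liver and liver tumour was sequenced from stranded TruSeq libraries of total RNA, per the labels' protocols. The deposited values are raw counts of reads per Ensembl gene, made with TopHat and HTSeq 0.6.1 on build mm9, per the submitters' processing notes. No source used here gives the annotation, strand setting or read filters. Entries that name no gene made up 20.9% to 27.6% of counted reads in the livers and 36.7% and 33.1% in tumours 1 and 2, and were left out. The TMM factors were 0.864 to 0.948 in the livers and 1.31 and 1.22 in tumours 1 and 2. The cause of these differences between tumour and liver libraries was not tested.

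Symbols, exon lengths and 31-base words came from GENCODE for GRCm38, and 32919 identifiers matched. Promoters came from RefSeq (GRCm38.p6). Tests used edgeR 4.0.16 under R 4.3.3 (robust quasi-likelihood fit, TMM, filterByExpr with minimum count 10 and minimum total 15, 1 mean per group over all 6 libraries, 3 residual degrees of freedom), two-sided, with Benjamini-Hochberg adjustment over all genes and a threshold of 0.05. The SE is the log2 fold change over the square root of F. The fit was tested on counts simulated as independent libraries with the spread estimated from these data. That test therefore does not address the shared mice. No replicate pair was a duplicate (chi-square 90.8 to 352 per degree of freedom). The 2 samples of a group come from different mice by the mouse codes. Tumour and KAP1-deleted liver of 1 mouse are paired by the mouse codes (r = 0.185 between their deviations across genes). The mouse was a block in an alternative only.

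The genes, lists, motifs and the rule for named genes were chosen with earlier results of these data known. The rule takes the 9 genes, Trim28, up to 4 genes per list and comparison with the smallest adjusted p, of which part is described, and the 5 genes most like Glul. Alternatives were DESeq2 size factors, library totals, 2 filters, DESeq2 1.42.0, a fit of 2 groups and each library left out.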

Additional observations from a re-analysis of the deposited data

How the results depend on the processing

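Over DESeq2 size factors, library totals alone, no filter, a mean CPM of at least 5, the DESeq2 test, a fit of the 2 groups compared and each library left out, Glul, Slc1a2 and Slc1a4 kept their direction and call in both tumour comparisons. The calls of Gls2, Slc38a3 and Slc38a4 that were lost are given with those genes. Leaving out a library leaves an arm with 1 sample, which is assumed to vary like the others, and low counts limit Slc1a4 in liver.

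Of the 8 genes, edgeR called 0 between KAP1-deleted and control liver and 1 with no filter. Against KAP1-deleted liver it called 6, and 3 to 5 with a library left out. With the mouse as a replicate block it called 5, losing Gls2, on 1 residual degree of freedom. No paired analysis was possible for the comparisons with control liver because those mice gave no tumour and share no mouse with the other groups. Over all genes, calls between KAP1-deleted and control liver numbered 59, then 571 with no filter, 17 with a CPM of at least 5, 230 with DESeq2, 20 with only 2 groups and 30 to 75 with a library left out. Tumour against KAP1-deleted liver gave 2007 (842 higher, 1165 lower), then 4837 with library totals (4317 higher, 520 lower), 3819 with no filter, 1228 with a CPM of at least 5, 3889 with the block and 640 to 2715 with a library left out. Tumour against control liver gave 2443, then 4588 with library totals (3962 higher, 626 lower), 4115 with no filter, 1432 with a CPM of at least 5 and 1103 to 2621 with a library left out. Library totals moved the median of all genes by 0.54 and 0.47 on the log2 scale. The cause of these differences was not tested.

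Log2 fold changes near 0 changed sign. In the order DESeq2 size factors, library totals, CPM of at least 5, DESeq2 test and 2 groups only, Oat between KAP1-deleted and control liver was -0.0081, -0.060, -0.010, -0.0081 and -0.0052. Against KAP1-deleted liver, Oat was 0.023, 0.47, 0.031, 0.023 and 0.0097, and Glud1 was 0.046, 0.53, 0.048, 0.046 and 0.034. Oat against control liver was 0.015, 0.41, 0.021 and 0.015 under the first 4. Trim28 between tumour and KAP1-deleted liver was 0.36 with library totals. With a library left out, the values between KAP1-deleted and control liver were -0.17 to 0.18 for Oat, -0.014 to 0.17 for Glud1 and -0.18 to 0.35 for Slc38a4. Against KAP1-deleted liver they were -1.54 to 0.69 for Oat and -0.068 to 0.037 for Glud1, and against control liver -1.52 to 0.70 and -0.032 to 0.18.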
